A study of Mus musculus and Rattus norvegicus with 14 samples.

Results

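Bone morphogenetic proteins (BMPs), activins and the secreted proteins that bind them were followed as a set of 9 genes, chosen by name: the BMP ligands Bmp2, Bmp4 and Bmp6, the activin subunits Inhba and Inhbb, and the antagonists Grem1, Fst, Fstl1 and Fstl3. The choice was made with earlier results of these data known, so counts set beside shares of all genes are descriptive. All 9 were found among the 54532 genes of the mouse heart table and among the 33600 genes of the rat cell table. The study, on myocardial fibrosis, sequenced poly(A) RNA from mouse hearts in 4 groups of 3 libraries, and from rat primary cells with 1 library per condition. Sham and Model hearts are labelled by those words alone, and the LQ-40 and SQ-3 hearts by the name of a test compound. The labels give no procedure, dose, time, strain or age, nor do they state that LQ-40 and SQ-3 hearts also underwent the Model procedure or that each library is 1 animal, so p-values measure only the spread between these libraries. The rat conditions were cardiomyocytes, cardiac fibroblasts and macrophages derived from bone marrow, either combined 1:1:1 from 2D culture or grown as a 3D co-culture, which the design text names 3D-OGD-MF and the series title places under hypoxia.

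BMPs and activins are secreted dimers of the transforming growth factor beta superfamily. They bind type I and type II serine/threonine kinase receptors, through which BMPs lead to phosphorylation of SMAD1 and SMAD5 and activins to phosphorylation of SMAD2 and SMAD3. Follistatin (Fst) and follistatin-like 3 (Fstl3) bind activins outside the cell, gremlin 1 (Grem1) binds BMP2 and BMP4, and follistatin-like 1 (Fstl1) is a secreted glycoprotein made in the heart by cells of the epicardium and by fibroblasts.

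Levels are given as FPKM (fragments per kilobase of gene and size of the library), a unit corrected for gene length, after scaling between libraries. Each mouse library had between 13085370 and 16698987 reads in genes. Of the 9 genes, 8 reached the minimum for testing (1 FPKM, as deposited, in at least 3 of 12 libraries): Bmp4, Bmp6 and Fstl1 reached 1 FPKM in all 12, Fstl3 in 11, Inhbb in 10, Inhba in 8, Fst in 7 and Bmp2 in 5. Bmp2, Inhba and Fst reached 1 FPKM in no Sham library and passed this filter through the other groups alone. Cell composition could differ between the hearts, and in bulk tissue fewer cells of a type and less RNA per cell cannot be told apart. All 8 cardiomyocyte markers were present in every heart library at 1 FPKM or more. The summed level of 7 fibroblast markers was 412 to 487 scaled FPKM in Sham and 2189 to 2499 in Model hearts. The LQ-40 libraries spread widely, at 794, 1775 and 2626 in LQ-40 1, 2 and 3, with cardiomyocyte sums of 13778, 10296 and 6854; LQ-40 1 was the lowest of its group for all 8 tested genes. Model 2 was likewise the lowest Model library for all 8, and SQ-3 2 the highest SQ-3 library for 6, with a fibroblast sum of 1777 against 1265 and 1368.

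In Model against Sham hearts, 7 of the 8 tested genes were higher and Bmp4 did not pass the test (limma on log2(scaled FPKM + 1), Benjamini-Hochberg adjusted p under 0.05). Over all 13000 genes tested, 20.9% were called higher and 38.9% called in either direction. The 7 genes include Bmp2, Inhba and Fst, which passed the filter only in groups outside Sham. The set was also chosen with earlier results of these data known, so the count beside this share is no independent support. The median difference of the 8 genes was 1.30 on the log2 scale, beside 0.03 over all genes tested. On this scale the antagonists Fstl1, at 2.67, and Fst, at 1.79, had the largest differences of the 8, Fstl3 lay at 1.29, activin subunits lay at 1.31 and 1.56, and the BMPs that rose did so by 0.55 and 0.41. The added 1 shrinks differences of low genes. Without it, the ratio of Model to Sham means was 22.7 for Fst, from few Sham reads, and 6.42 for Fstl1. Model libraries lay wholly above Sham libraries for the same 7 genes, where 29.8% of all tested genes did so. The plot of levels by library shows each value.

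**Figure D1:**
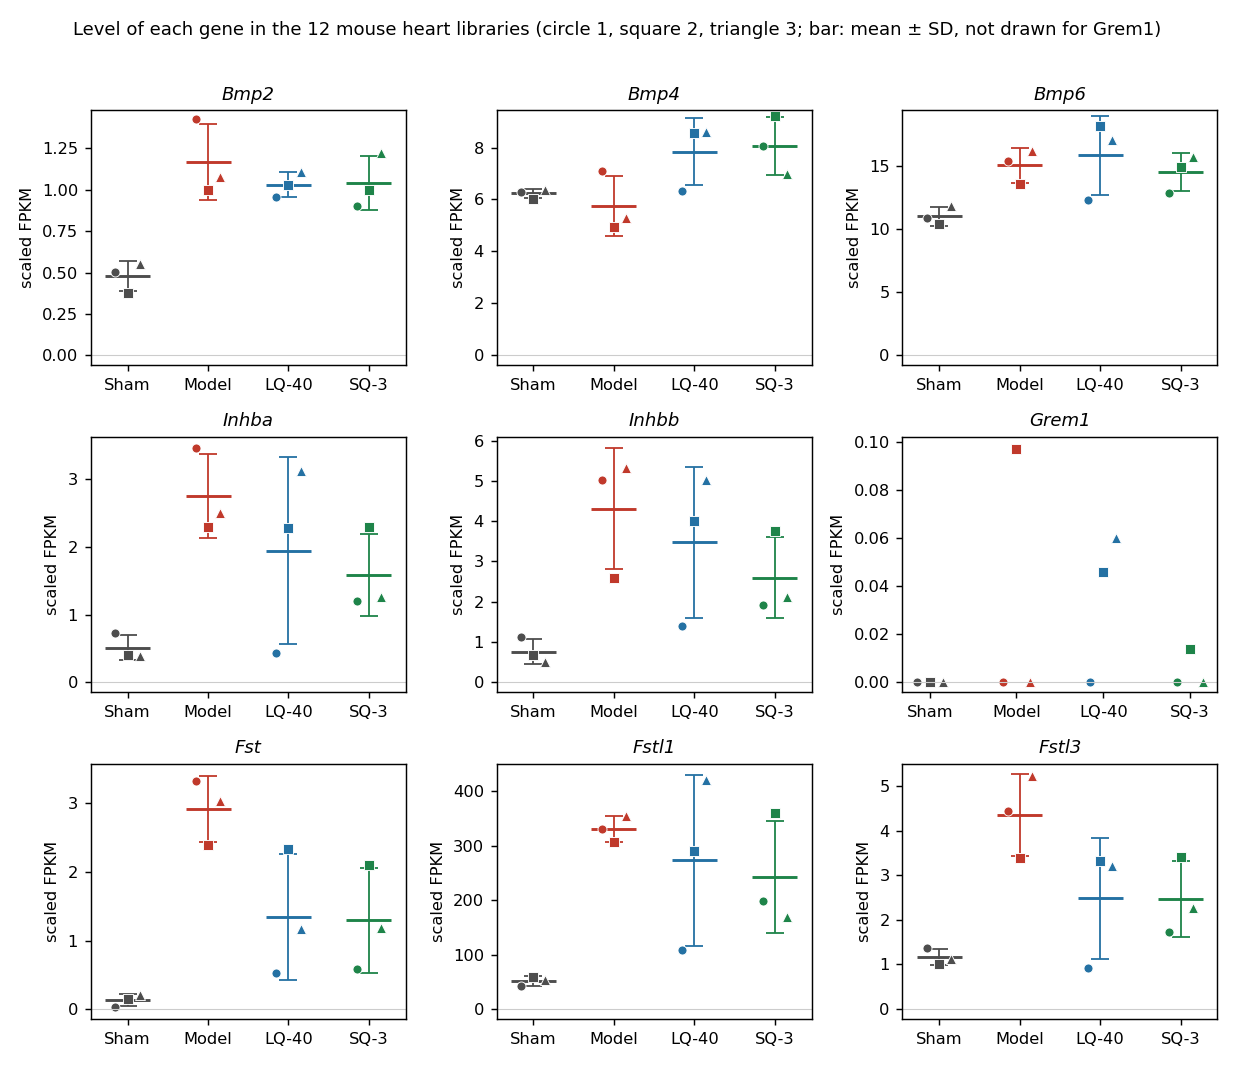
Scaled FPKM (y axes, from 0, 1 panel per gene) in the 3 libraries of each mouse heart group (x axes); horizontal lines are group means and bars SD, left out for Grem1, which has 6 reads at most. Model lies above Sham without overlap for 7 genes, and LQ-40 1 (blue circle) is the lowest LQ-40 library in each of the 8 tested genes.

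Inhba and Inhbb encode the βA and βB subunits whose dimers are activin A and activin B. The gene for βA lies at mm10 chr13:16011851-16031621 on the plus strand and that for βB at chr1:119415465-119422248 on the minus strand. As they rose together, the 250 bases before each start are shown with those of the activin-binding Fstl3 (RefSeq, GRCm38.p6, each 5′ to 3′ on the gene's strand). Capitals mark matches to GTCTG or its reverse complement CAGAC, a core of SMAD-binding elements. The sequences are for chr13:16011601-16011850 (plus), chr1:119422249-119422498 (minus) and chr10:79777024-79777273 (plus).
Inhba: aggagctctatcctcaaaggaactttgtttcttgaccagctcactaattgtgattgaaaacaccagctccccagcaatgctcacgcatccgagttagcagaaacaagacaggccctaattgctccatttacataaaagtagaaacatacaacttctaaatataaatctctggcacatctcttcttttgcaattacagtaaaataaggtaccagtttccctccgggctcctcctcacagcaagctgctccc
Inhbb: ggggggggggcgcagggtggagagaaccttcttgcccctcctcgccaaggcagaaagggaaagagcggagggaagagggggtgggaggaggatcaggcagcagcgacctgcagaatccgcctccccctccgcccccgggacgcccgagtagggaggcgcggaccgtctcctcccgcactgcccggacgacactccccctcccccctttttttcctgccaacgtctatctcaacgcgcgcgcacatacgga
Fstl3: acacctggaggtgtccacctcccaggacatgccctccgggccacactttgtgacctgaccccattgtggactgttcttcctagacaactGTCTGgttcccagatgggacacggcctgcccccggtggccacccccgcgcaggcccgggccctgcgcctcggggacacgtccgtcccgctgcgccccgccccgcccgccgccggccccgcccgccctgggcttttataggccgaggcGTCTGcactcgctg
GTCTG or CAGAC occurs 2 times in the Fstl3 window and in neither activin subunit's, and 42.2% of 32851 promoter windows of this length hold it. None of the 3 windows holds GGCGCC, found in 9.59% of all windows on either strand, or TGAGTCA or its reverse complement TGACTCA, found in 4.46%. Base composition differed, with 43.2% G and C before Inhba and 68.0% before Inhbb, beside a median of 52.4% over all windows. The start sites of Inhba and Inhbb match those of the deposited annotation, and that of Fstl3 lies 2 bases away. RefSeq windows were matched for 7 of the 9 genes, all but Bmp2 and Fst. These matches describe letters in a window and say nothing of binding.

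Inhba stood at 0.722, 0.408 and 0.394 scaled FPKM in Sham 1, 2 and 3 and at 3.46, 2.29 and 2.49 in Model 1, 2 and 3. In LQ-40 libraries it was 0.436, 2.28 and 3.12, and in SQ-3 libraries 1.20, 2.29 and 1.26. All Model libraries exceeded all Sham libraries, LQ-40 1 fell within the Sham range, and the SQ-3 libraries lay between the Sham and Model groups. The group means were 0.508 ± 0.185, 2.75 ± 0.625, 1.95 ± 1.37 and 1.58 ± 0.609 (SD, n = 3 each) for Sham, Model, LQ-40 and SQ-3. Model exceeded Sham by 1.31 ± 0.33 (SE) on the log2(scaled FPKM + 1) scale (limma adjusted p = 0.0111), and the ratio of the group means without the added 1 was 5.41. In the order Model, LQ-40, SQ-3, Sham, no neighbouring groups differed past the threshold, SQ-3 and Sham included (adjusted p = 0.164).

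Inhbb followed with 1.12, 0.666 and 0.499 scaled FPKM in the Sham and 5.02, 2.59 and 5.33 in the Model libraries. LQ-40 libraries gave 1.402, 3.996 and 5.03, and SQ-3 libraries 1.92, 3.76 and 2.12. Each Model, LQ-40 and SQ-3 library was above the highest Sham library. Model exceeded Sham by 1.56 ± 0.34 log2 units (limma adjusted p = 0.00614), a 5.66-fold ratio of the means 4.31 ± 1.502 and 0.762 ± 0.322 (SD, n = 3). LQ-40 also exceeded Sham (1.26 log2, adjusted p = 0.035), a call lost in 9 of 19 alternatives (adjusted p up to 0.140), while SQ-3 minus Sham, at 1.01, did not pass (adjusted p = 0.0977). The level of Inhba was 0.682 ± 0.094 times that of Inhbb in Sham and 0.681 ± 0.209 times in Model hearts (SD, n = 3), so the balance of the subunits' mRNAs moved by less than its spread.

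Fst encodes follistatin, which binds and neutralises activins, and lies at chr13:114452290-114458951 on the minus strand. Its level was 0.0341, 0.146 and 0.206 scaled FPKM in Sham libraries, from 2, 9 and 12 reads, and 3.33, 2.39 and 3.04 in Model libraries. LQ-40 libraries held 0.523, 2.33 and 1.17 and SQ-3 libraries 0.589, 2.10 and 1.19. Every LQ-40 and SQ-3 library was above Sham and below Model, for LQ-40 by a margin of 2.328 against 2.385 at the nearest libraries. Of all genes tested, 10.8% were lower in this way in LQ-40 than in Model hearts, and 14.3% in SQ-3 hearts. Neither LQ-40 nor SQ-3 differed from Model past the threshold (limma adjusted p = 0.279 and 0.273). The Model mean of 2.92 ± 0.484 was 22.7 times the Sham mean of 0.129 ± 0.0872 (SD, n = 3), a ratio that rests on few Sham reads; with 1 added before the log2, which makes changes of low genes look smaller, the difference was 1.79 ± 0.29 (limma adjusted p = 0.00156). The order was Model, LQ-40, SQ-3, Sham. LQ-40 exceeded Sham by 0.98 log2 units (adjusted p = 0.0426), a call lost in 12 of 19 alternatives (adjusted p up to 0.136), and SQ-3 minus Sham was 0.97 (adjusted p = 0.0681).

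Fstl3, at chr10:79777272-79782630 on the plus strand, encodes a follistatin relative that also binds activins. Sham libraries read 1.37, 1.01 and 1.13 and Model libraries 4.44, 3.38 and 5.22 scaled FPKM. LQ-40 libraries read 0.919, 3.31 and 3.21, and SQ-3 libraries 1.72, 3.40 and 2.26. LQ-40 1 lay below every Sham library, whereas the other LQ-40 libraries lay just under the lowest Model library. Model exceeded Sham by 1.29 ± 0.29 log2 units (limma adjusted p = 0.0069), with means of 4.34 ± 0.923 and 1.17 ± 0.188 (SD, n = 3). Neither LQ-40 nor SQ-3 differed from Sham past the threshold (adjusted p = 0.166 and 0.173).

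Fstl1, at chr16:37776873-37836514 on the plus strand, was by far the most abundant antagonist within the set of 9 genes. It made up 97.5 ± 0.682% of the summed FPKM of Grem1, Fst, Fstl1 and Fstl3 in Sham and 97.9 ± 0.237% in Model hearts (SD, n = 3). Antagonists outside the set are not in this sum, such as Twsg1 and Nbl1, at 24.4 and 8.50 scaled FPKM in Sham hearts. Sham libraries had 41.7, 58.7 and 54.1 scaled FPKM, and Model libraries 330.5, 306 and 355. LQ-40 libraries had 109, 290.3 and 421, and SQ-3 libraries 198, 359.7 and 169.9. Every library outside Sham was above the Sham range, with LQ-40 1 the lowest of them and LQ-40 3 the highest. Model exceeded Sham by 2.67 ± 0.43 log2 units, or 6.37-fold (limma adjusted p = 0.00159), which placed it 98th of 13000 genes by size of difference on the log2(scaled FPKM + 1) scale. Against the Sham mean of 51.5 ± 8.81, LQ-40 (273 ± 157) and SQ-3 (243 ± 102, SD, n = 3) were also higher, by 2.20 and 2.15 log2 units (adjusted p = 0.0125 and 0.0192).

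Grem1, at chr2:113746164-113758646 on the minus strand, was at the limit of detection. Its reads numbered 0 in all Sham libraries, where a count of 0 allows up to 3 reads, and 6, 3, 4 and 1 in Model 2, LQ-40 2, LQ-40 3 and SQ-3 2. The remaining libraries had 0 reads, so no fold or test is given.

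Differences between Model and Sham were smaller for the BMPs than for the activin subunits and tested antagonists. Bmp2, an inducer of bone and of heart valve development, lies at chr2:133552159-133562885 on the plus strand and was the lowest of the 3. Its libraries read 0.506, 0.377 and 0.553 scaled FPKM in Sham and 1.43, 1.00 and 1.07 in Model hearts. In LQ-40 and SQ-3 hearts they read 0.959, 1.03 and 1.11 and 0.902, 0.999 and 1.22. No Sham library overlapped any other group, and the other 3 groups overlapped one another. The difference from Sham was 0.55 ± 0.12 log2 units for Model (limma adjusted p = 0.00705), 0.46 for LQ-40 (adjusted p = 0.0342) and 0.46 for SQ-3 (adjusted p = 0.0497), and the ratio of means of Model to Sham was 2.44. The Model call held in all 19 alternatives, whereas the LQ-40 call was lost in 10 of them (adjusted p up to 0.125) and the SQ-3 call in 15 (up to 0.143).

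Bmp6, which is known for controlling hepcidin and iron balance in the liver, lies at chr13:38345107-38500302 on the plus strand and made up most of the summed FPKM of the 3 BMPs, 62.2 ± 0.873% in Sham and 68.6 ± 3.83% in Model hearts (SD, n = 3). Its level was 10.9, 10.4 and 11.9 scaled FPKM in Sham and 15.4, 13.6 and 16.2 in Model libraries. It was 12.3, 18.2 and 17.1 in LQ-40 and 12.9, 14.95 and 15.8 in SQ-3 libraries. Each library outside Sham was above the Sham range. Model exceeded Sham by 0.41 ± 0.14 log2 units, or 1.33-fold (limma adjusted p = 0.0391), but this call was lost when Sham 1, 2 or 3, Model 1 or Model 3 was left out (adjusted p 0.0506 to 0.119) or when the FPKM were taken as deposited (0.0541) or left unfiltered (0.0722). Bmp6 overlaps Txndc5 on the opposite strand by 224 bases; Txndc5 had up to 4272 reads, and with no strand setting stated, reads in those bases cannot be told apart.

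Bmp4, which patterns the mesoderm and the developing heart, lies at chr14:46383520-46390669 on the minus strand and was the 1 tested gene that did not rise in Model hearts. It stood at 6.29, 6.03 and 6.37 scaled FPKM in Sham and 7.08, 4.93 and 5.28 in Model libraries. LQ-40 libraries gave 6.34, 8.55 and 8.60 and SQ-3 libraries 8.06, 9.20 and 6.97. Model libraries spread to both sides of the narrow Sham range, and SQ-3 libraries all lay above it. Model minus Sham was -0.11 log2 units (95% interval -0.43 to 0.21, limma adjusted p = 0.576). In the order SQ-3, LQ-40, Sham, Model, with means of 8.07, 7.83, 6.23 and 5.77, no groups differed past the threshold.

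Markers of some cell types, though not all, also differed between Model and Sham hearts. Of 7 fibroblast markers, 7 were called higher in Model than in Sham hearts, and of 7 macrophage markers, 6 (summed 360.2 to 547 scaled FPKM in Sham, 761 to 1127 in Model). Of 5 mesothelial markers, which the epicardium shares, 3 were called higher (2.76 to 15.4 in Sham, 14.9 to 79.8 in Model); their median difference was 1.96 on the log2 scale, beside 1.73 for the fibroblast and 0.95 for the macrophage markers. Model 2, the lowest Model library for all 8 tested genes, had the highest mesothelial sum of the Model libraries. Of 8 cardiomyocyte markers, 7 were called lower (16793 to 18391 in Sham, 8401 to 10095 in Model), and of 7 endothelial markers 1 was called higher (250.3 to 334 in Sham, 249.7 to 287 in Model). The 6 smooth muscle and pericyte markers summed to 335.7 to 353 in Sham and 336.4 to 364 in Model hearts. Fstl1 and Inhba were mostly high in the libraries with high fibroblast sums, and low in LQ-40 1, as the plot against the marker sum shows. The order was not strict. Fstl1 in SQ-3 2, at a marker sum of 1777, was 359.7 scaled FPKM, above each Model library. Inhba in LQ-40 1, at a sum of 794, was 0.436, below the 0.722 of Sham 1. Fst also departed from that order, in LQ-40 3, which had the highest marker sum of all 12 libraries and an Fst level of 1.17. What part the cell makeup has in the members' differences was not tested.

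**Figure D2:**
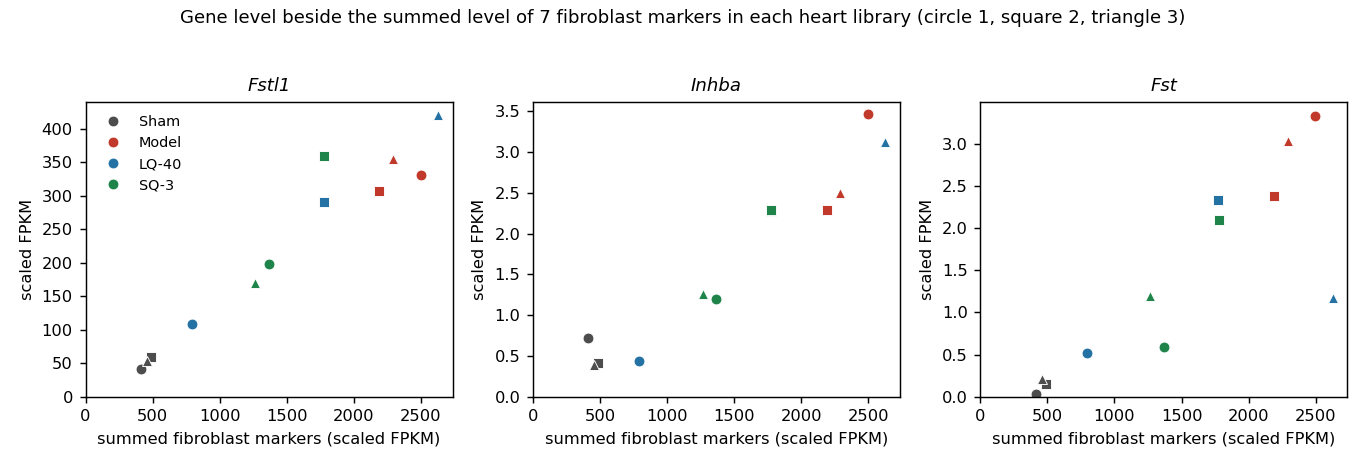
Level of Fstl1, Inhba and Fst (y axes, scaled FPKM) against the summed level of 7 fibroblast markers (x axes, scaled FPKM) in each of the 12 heart libraries. Sham libraries lie at the lower left, at sums of 412 to 487, and LQ-40 3, at 2626, has high Fstl1 and Inhba and an Fst level under that of each Model library.

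Between hearts labelled with a compound and Model hearts, none of the 8 tested genes was called. For LQ-40 minus Model, limma called 0 of 8 genes (0.669% of all genes tested were called), and 3 had an unadjusted p under 0.05, beside 12.1% of all genes: Fst with -0.81 (95% interval -1.44 to -0.18, adjusted p = 0.279), Fstl3 with -0.70 (-1.33 to -0.06, 0.361) and Bmp4 with 0.39 (0.07 to 0.71, 0.308). Limma-voom on reads recovered from the FPKM also called 0. Fst and Fstl3 were lower in all LQ-40 than in all Model libraries, where 10.8% of all genes were. Without LQ-40 1, the Fst difference was -0.54, that of Fstl3 -0.31, that of Inhba -0.02 in place of -0.47, and that of Fstl1 0.08 in place of -0.47.

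For SQ-3 minus Model, limma and limma-voom each called 0 of 8 genes (0.346% of all genes tested were called by limma), and 3 had an unadjusted p under 0.05, beside 14.2% of all genes. Fst differed by -0.82 (95% interval -1.45 to -0.19, adjusted p = 0.273), Fstl3 by -0.64 (-1.28 to -0.00, 0.351) and Bmp4 by 0.43 (0.11 to 0.75, 0.258). Fst and Inhba were lower in all SQ-3 than in all Model libraries, for Inhba by a margin of 2.286 against 2.291 at the nearest libraries, and 14.3% of all genes were lower in this way. The comparisons share the Model libraries, so their likeness is no separate evidence. The plot of differences with their intervals sets them side by side.

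**Figure D3:**
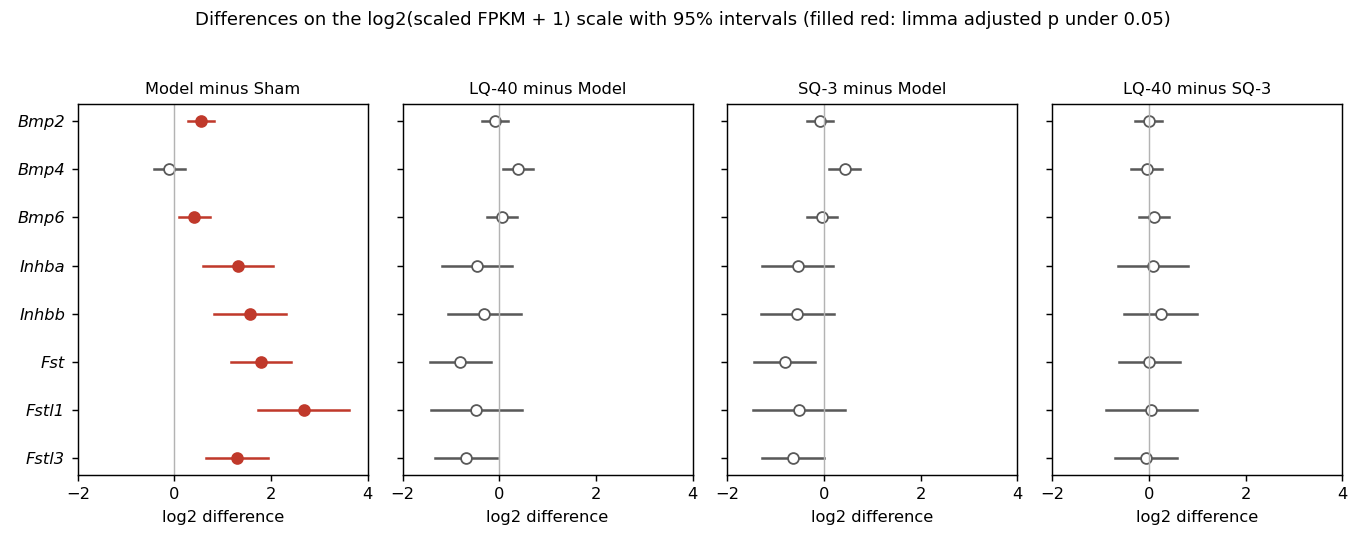
Differences on the log2(scaled FPKM + 1) scale (x axes) of the 8 tested genes (rows) in 4 comparisons of mouse groups; points are limma estimates from 12 libraries, lines 95% intervals, and filled red points are those with an adjusted p under 0.05. Filled points occur in Model minus Sham alone, for 7 genes, and the intervals of LQ-40 minus SQ-3 all cross 0.

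LQ-40 and SQ-3, which the design text presents as structurally similar, formed the 1 pair of compounds to compare; the labels state neither dose nor time for either. Limma called 0 of 8 genes between them, as over all 13000 genes (0%), none of the 8 had an unadjusted p under 0.05, beside 3.03% of all genes, and limma-voom also called 0. Each adjusted p was 0.99955, and libraries of the compounds overlapped for all 8 genes, where 6.12% of all genes did not overlap. The estimates ran from -0.06 for Fstl3 to 0.25 for Inhbb. The 95% interval was widest for Fstl1, at -0.90 to 0.99, and narrowest for Bmp2, at -0.28 to 0.27. Intervals for Inhba (-0.64 to 0.81), Inhbb (-0.51 to 1.00), Fst (-0.62 to 0.64) and Fstl3 (-0.69 to 0.58) leave room for differences in either direction and do not show that the compounds act alike.

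Set against Sham, LQ-40 hearts were called higher for 5 of the 8 genes, Fstl1, Bmp2, Inhbb, Fst and Bmp6, beside 9.83% of all genes; the same 5 did not overlap with Sham libraries, beside 19.2%. SQ-3 hearts were called higher for 2, Fstl1 and Bmp2, beside 4.88% of all genes, although each SQ-3 library exceeded each Sham library for all 8 genes, beside 20.2%. The LQ-40 call was lost in 16 of 20 alternatives for Bmp6 (adjusted p up to 0.163) and in 3 of 20 for Fstl1 (up to 0.0702), and the SQ-3 call for Fstl1 in 4 of 20 (up to 0.0761). Bmp2, Inhba and Fst, which are among the 8, passed the filter only in groups outside Sham. The counts of 5 and 2 moved with single libraries. Without LQ-40 1, 7 genes were called for LQ-40 and, through the shared spread, 7 for SQ-3. For LQ-40 the count was 0 without Sham 1 or LQ-40 2, 1 without Sham 2, Sham 3 or LQ-40 3, 2 without Model 3 and 3 without Model 1, Model 2 or SQ-3 3. For SQ-3 it was 0 without Sham 1, Sham 2 or SQ-3 2, and 1 without Sham 3, SQ-3 1, SQ-3 3 or any 1 Model library.

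Within the members, activin subunits and their binding proteins were compared as sums of FPKM. Inhba plus Inhbb amounted to 0.970 ± 0.320 times Fst plus Fstl3 in Sham hearts, 0.962 ± 0.123 times in Model hearts, 1.42 ± 0.393 times under LQ-40 and 1.14 ± 0.189 times under SQ-3 (SD, n = 3). Both sums were higher in Model hearts, 7.06 ± 1.92 against 1.27 ± 0.504 for the subunits and 7.26 ± 1.32 against 1.30 ± 0.132 for the binding proteins, and their ratio moved by less than its spread. The ratio of Inhba to Fst ran from 1.92 to 21.2 in Sham, where Fst had few reads, and from 0.821 to 1.04 in Model libraries.

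Genes with the most similar course over the 12 libraries were sought among 11557 protein-coding genes, by the root-mean-square difference of centred log2(scaled FPKM + 1) values. They are given for the 7 genes called in Model minus Sham, which leaves out Bmp4. For Fstl1 they were Mdk (0.173), Serpinf1 (0.179) and Mfap5 (0.186), beside a median of 1.14 over all candidates. Fst was closest to Map6 (0.191), Crispld2 (0.197) and Pkd1 (0.202), beside a median of 0.713, and Fstl3 to Adarb1 (0.136), Col27a1 (0.136) and A4galt (0.137), beside 0.574. Inhba was closest to Slc41a2 (0.135), Tmed3 (0.143) and Lsp1 (0.150), beside 0.606, and Inhbb to Gpx3 (0.172), Pde1a (0.177) and Havcr2 (0.181), beside 0.708. Bmp2 was closest to Srd5a3 (0.0930), Mfsd5 (0.0945) and Dmtn (0.0969), beside 0.301, and Bmp6 to Pag1 (0.0767), Lpin2 (0.0861) and Pknox2 (0.0942), beside 0.301. No member was the nearest gene of another by construction, since members were left out of the candidates, and all values share the same libraries. The nearest genes also lie below the median by selection. Values are not comparable between members, since they grow with a member's own spread about its mean, 1.14 for Fstl1 and 0.233 for Bmp2. The correlations with their nearest genes were 0.992 and 0.917.

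Around these ligands and antagonists, 66 further genes of the pathway were listed, 41 were tested, and 20 were called higher and 1 lower in Model than in Sham hearts, beside the 20.9% of all genes called higher and 18.0% called lower. They too were listed with earlier results of these data known, and some, Sost among them, passed the filter only outside Sham. Among other antagonists, 6 of 10 tested rose: Nbl1 (a BMP-binding relative of gremlin) from 8.50 ± 0.984 to 60.5 ± 4.77 scaled FPKM (SD, n = 3; 2.70 log2, limma adjusted p = 0.000224), Sost (sclerostin, known mainly as a Wnt antagonist) by 1.66, Bmper (a modulator that binds BMPs) by 1.31 and Twsg1 (a chordin partner) by 0.68, with 2 more. The 1 added before the log2 makes rises from low levels look smaller, as for Sost, at 0.0998 scaled FPKM in Sham and 2.46 in Model hearts. Of the other ligands 1 of 4 tested rose, Gdf6, by 1.28 (adjusted p = 0.00858), and the inhibin alpha subunit gene Inha, at -0.26, was not called (adjusted p = 0.235).

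On the receiving side, 5 of 13 tested receptors and coreceptors rose and 1 fell. Acvrl1, the endothelial type I receptor ALK1, rose by 0.89 log2 units (limma adjusted p = 0.00302), Acvr1, the type I receptor ALK2, by 0.84 (0.00434) and Neo1, the RGM receptor neogenin, by 0.63 (0.00275). Hfe2, hemojuvelin, a BMP coreceptor made in striated muscle and liver, was lower in Model hearts, with 45.2 ± 6.80 scaled FPKM against 107 ± 6.13 in Sham (SD, n = 3; -1.23 log2, adjusted p = 0.0259); the cardiomyocyte markers were also lower there, and their part was not tested. The activin receptor Acvr2a, at -0.18, and the BMP receptor Bmpr2, at 0.28, did not pass (adjusted p = 0.277 and 0.0682).

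Of 9 tested SMAD and SMURF genes, 6 rose, among them the activin-responsive Smad3 by 0.56 (limma adjusted p = 0.00957) and the shared partner Smad4 by 0.41 (0.0235), while Smad2 (0.11) was not called. Of 5 tested target genes, the transcriptional inhibitors Id2 and Id3 rose, by 1.54 and 0.72 (adjusted p = 0.00841 and 0.0388). Id1, a widely used readout of BMP signalling, was 56.8 ± 7.37 scaled FPKM in Sham and 45.6 ± 12.5 in Model hearts (SD, n = 3) and was not called (-0.34 log2, adjusted p = 0.25). Limma called none of the 41 tested genes in LQ-40 minus Model, SQ-3 minus Model or LQ-40 minus SQ-3, where 6, 5 and 1 had an unadjusted p under 0.05, beside 12.1%, 14.2% and 3.03% of all genes. Against Sham, 12 of the 41 were called higher for LQ-40 and 3 for SQ-3, beside 9.83% and 4.88% of all genes. In these comparisons, which leave out Model minus Sham, the counts other than the 12 lie near those shares.

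**Figure D4:**
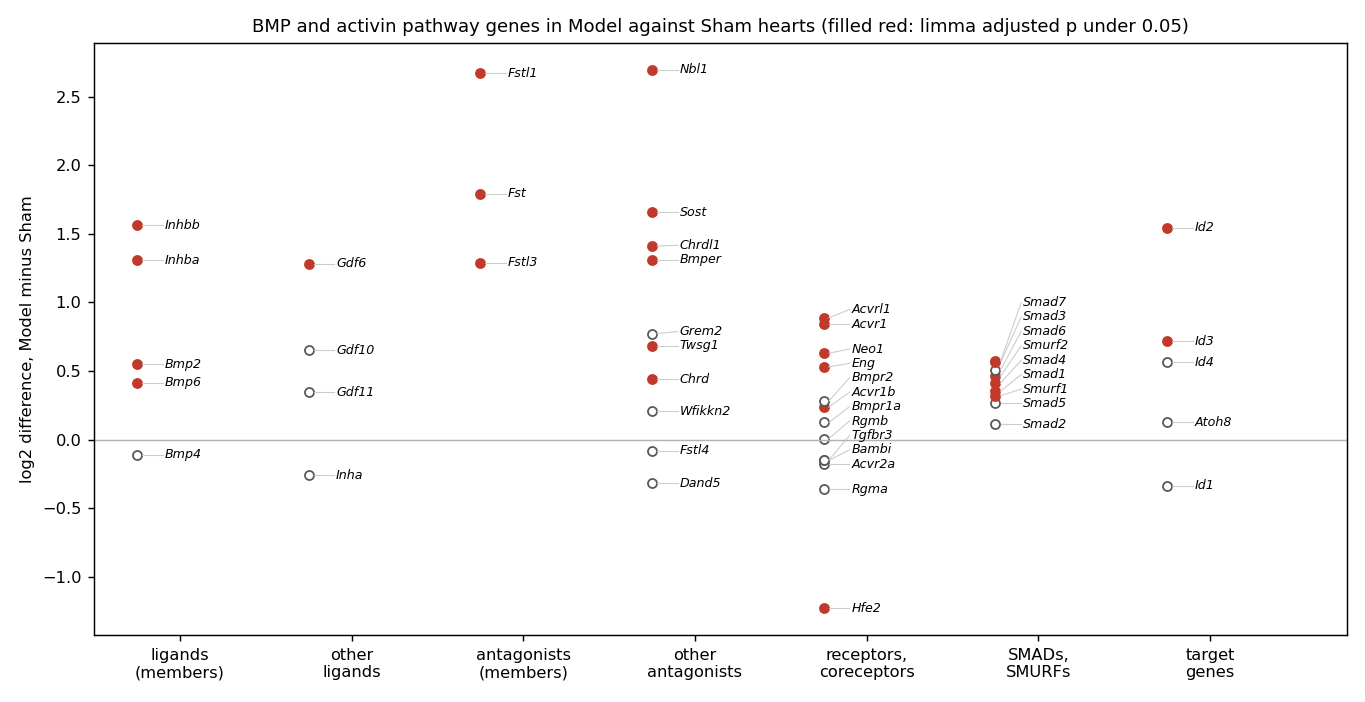
Log2 difference of Model minus Sham hearts (y axis) for each tested ligand, antagonist, receptor, SMAD or SMURF gene and target gene (columns by role); filled red points passed an adjusted p under 0.05 in limma over 13000 genes. Nbl1 and Fstl1 stand highest on this log2(scaled FPKM + 1) scale, at 2.70 and 2.67, and Hfe2 lowest, at -1.23.

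In rat cells there was 1 library per condition, of 13262387 reads for 2D cells and 11910160 for the co-culture, so no test is possible and intervals cover counting error only. Of the 9 genes, 7 reached the minimum for comparison, 1 FPKM in either library; 3 of them, Bmp2, Bmp6 and Inhba, were more than 2-fold higher in the 3D co-culture, beside 5.03% of 13405 genes, and Bmp4 was more than 2-fold lower, beside 2.44%. The median log2 difference of the 7 was 0.19, beside 0.00 over all genes compared. Culture form and co-culture differ together between the libraries. The hypoxia of the series title and any treatment meant by OGD in the name 3D-OGD-MF may differ too, so these cannot be told apart. As a check of the labels, 8 cardiomyocyte markers summed to 10.3 scaled FPKM in 2D cells and 10.96 in the co-culture, with Myl2 at 0 in both, and 7 macrophage markers to 27.5 and 21.0, against 2538 and 2830 for 7 fibroblast markers, most of it Col1a1 (2007 and 1788). Single fibroblast markers differed between the libraries: Dcn (76.7 and 254), Pdgfra (4.01 and 11.8) and Lum (3.88 and 10.3) were more than 2-fold higher in the co-culture and Tcf21 (13.1 and 5.82) more than 2-fold lower, with a median log2 difference of 0.99 over the 7. Their part in the differences of the ligands was not tested. The named cardiomyocytes and macrophages thus left little marker RNA in either library. By contrast, 6 smooth muscle and pericyte markers summed to 1238 scaled FPKM in 2D cells and 1154 in the co-culture. The sums of 5 mesothelial markers were 163 and 155, nearly all of it Msln (160 and 150). The labels name neither of these cell types.

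Bmp2 had 36 reads in 2D cells and 518 in the co-culture, 0.832 and 13.9 scaled FPKM, a read ratio of 16.7 (exact 95% interval 11.9 to 24.1). Bmp6 went from 9.03 to 26.4 scaled FPKM, a ratio of 2.93 (2.47 to 3.49), and Inhba from 45.2 to 96.4, a ratio of 2.13 (2.00 to 2.27). Bmp4 was 8.65 in 2D cells and 3.49 in the co-culture, on 253 and 88 reads, a ratio of 0.404 (0.313 to 0.517). Bmp4 thus differed in the opposite direction to the other 3 ligands.

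The antagonists differed less. Fst was 170.6 scaled FPKM in 2D cells and 187 in the co-culture, a ratio of 1.09 (1.03 to 1.16), and Fstl1 161.6 and 184, a ratio of 1.14 (1.10 to 1.18). Fstl3 was 6.73 and 4.75, a ratio of 0.705 (0.548 to 0.903). Grem1, with 4 and 7 reads, and Inhbb, with 29 and 20 reads, stayed below 1 FPKM in both libraries and were not compared. Levels of Fst and Fstl1 were thus alike in these cells, whereas in hearts Fst was the lowest tested antagonist of the set in each group. Inhba stood at 0.265 times Fst in 2D cells and 0.516 times in the co-culture. Among other pathway genes past 2-fold, Gdf6 went from 10.3 to 3.45 and the BMP target Atoh8 from 14.6 to 4.77 scaled FPKM. Hamp, also past 2-fold by that measure, had 5 reads and 0, and the interval of its read ratio reaches 1.27.

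**Figure D5:**
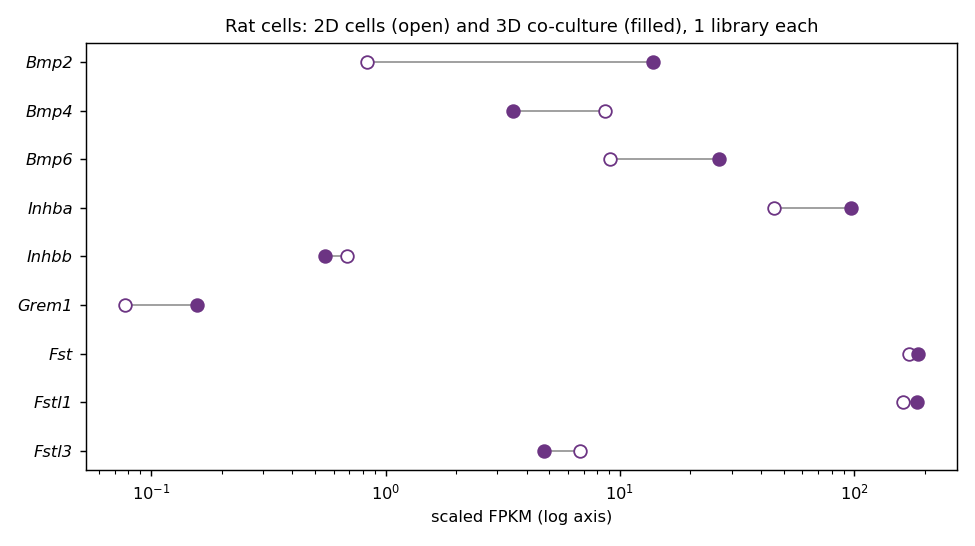
Scaled FPKM (x axis, log scale) of the 9 genes (rows) in the rat 2D cells (open circles) and the 3D co-culture (filled circles), 1 library each, with no error bar possible. Bmp2, Bmp6 and Inhba lie further right in the co-culture and Bmp4 further left, while Fst and Fstl1 nearly coincide.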

How the data were processed

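Poly(A) RNA of 12 mouse heart libraries and 2 rat cell libraries was sequenced. The authors deposited FPKM per gene; per the submitters' processing notes the tools were featureCounts 1.5.0-p3, HISAT2 2.0.5 and fastp and the builds mm10 and Rnor_6.0, and neither strand setting nor annotation release is named. From these FPKM, a median-of-ratios factor over 10422 genes was computed (12109 in rat). Whole reads were recovered from FPKM and gene length, with 100% of values whole within 0.02 read; mouse libraries held 13085370 to 16698987 reads, where 1 read in a 1 kb gene is worth 0.0566 to 0.0805 FPKM. The 13000 genes that reached 1 FPKM in 3 or more libraries were tested with limma 3.58.1 (R 4.3.3; lmFit, eBayes with trend) on log2(scaled FPKM + 1) over all 12 libraries, two-sided, with Benjamini-Hochberg adjustment and a threshold of 0.05; the script was tested on simulated data. Alternatives tried were a pseudocount of 0.1, unscaled FPKM, quantile normalization, other filters, a replicate block, limma-voom on recovered reads, 2-group fits and leaving out single libraries. Rat values are ratios with exact 95% binomial intervals, which cover counting error only. All 9 genes are named; of each pathway list, up to 4 called genes by smallest adjusted p and up to 2 others are named, and for likeness the 3 nearest genes of each member called in Model minus Sham. Members and lists were chosen with earlier results of these data known.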

Additional observations from a re-analysis of the deposited data

How the results depend on the processing

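Over 930 recomputations of single genes in mouse comparisons, 816 kept their direction and side of the threshold, 76 fell below it, 10 passed it and 28 changed sign. In Model minus Sham the count of 7 was 2 when genes needed a mean of 5 FPKM, a filter that only 3 of the genes passed; it was 7 with the replicate number as a block and 6 to 7 when single libraries were left out. The calls of the 6 genes other than Bmp6 held in every alternative that tested them. In LQ-40 minus Sham the count of 5 became 2 under quantile normalization, the mean filter or the replicate block, 1 with no filter, 0 with only the 2 groups compared and 0 to 7 when single libraries were left out. In SQ-3 minus Sham the count of 2 became 1 with FPKM as deposited, quantile normalization, the mean filter or the replicate block, 0 with no filter and 0 to 7 without single libraries. The counts in LQ-40 minus Model, SQ-3 minus Model and LQ-40 minus SQ-3 were 0 in every alternative, the replicate block included, and the rat count of 4 held under 3 alternatives. Replicate numbers did not pair the libraries, since same-numbered libraries had correlations of -0.27 to 0.22, 3 of 18 over 0.1; the block changed no other call. Sign changes in LQ-40 minus SQ-3 were small: Inhba -0.0139 and Fst -0.00792 with a pseudocount of 0.1, Fst -0.0202 under quantile normalization, and Bmp2 0.0174 with limma-voom. Leaving out single libraries gave ranges across 0 for LQ-40 minus Model in Fstl1 (-0.89 to 0.0835), Inhbb (-0.57 to 0.0912) and Bmp6 (-0.0463 to 0.22), for SQ-3 minus Model in Bmp6 (-0.12 to 0.0303), and for LQ-40 minus SQ-3 in Fstl1 (-0.37 to 0.60), Bmp4 (-0.13 to 0.0849), Inhbb (-0.0200 to 0.64), Fstl3 (-0.26 to 0.33), Inhba (-0.23 to 0.53), Fst (-0.28 to 0.28) and Bmp2 (-0.0539 to 0.0586). The cause was not tested. The alternatives that left out a library of a group not compared were chosen after seeing the data. Counts over all genes ranged from 3288 to 5501 around 5053 in Model minus Sham, 14 to 155 around 87 in LQ-40 minus Model, 12 to 142 around 45 in SQ-3 minus Model, 230 to 4372 around 2049 in LQ-40 minus Sham, 227 to 1986 around 872 in SQ-3 minus Sham and 0 to 2 around 0 in LQ-40 minus SQ-3. Depth limits Fst in Sham hearts and Grem1 in all hearts, and 1 library per condition limits the rat values.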
